A study of Rattus norvegicus with 24 samples.

Results

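PAIR1 was compared with KIRA9 in rat INS1 cells 24 h after IRE1α had been switched on. The comparison holds 6 libraries, 3 for each compound, out of 24 in the series, and its members were taken from the table's column names and matched to the sample titles. INS1 is a line from a rat insulinoma that stands in for pancreatic beta cells. All 6 libraries come from cells that carry mouse IRE1α (gene Ern1) under doxycycline control, and all 6 cultures received doxycycline, so that induction is shared by both sides of the comparison. The other 24 h groups used here are induced cells given vehicle and uninduced cells given vehicle without doxycycline, with 3 libraries each, and the same 4 treatments were also sampled at 4 h.

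IRE1α is a sensor of unfolded protein in the membrane of the endoplasmic reticulum, with a kinase and an RNase domain on its cytosolic side. When it is moderately active its RNase cuts Xbp1 mRNA, whose spliced form encodes a transcription factor that raises folding and secretion genes. When it is strongly active it also cuts many other mRNAs at the membrane, a process known as regulated IRE1-dependent decay, which in beta cells includes insulin mRNA and is linked to cell death. Both compounds bind the kinase. The series title names PAIRs as partial antagonists of the RNase, and KIRA stands for kinase-inhibiting RNase attenuator. The question of the comparison is whether induced cells held under a partial antagonist differ from induced cells held under KIRA9. Doses are not in the labels, so nothing here says how the compounds compare at an equal dose.

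The labels say nothing on whether the line is 1 clone, and they do not say whether replicates are separate cultures, so p-values measure the spread between these samples only, which may be technical. No uninduced cells received a compound. The table lists Ensembl gene IDs without names, and 0 of 26689 IDs matched the gene table at hand. The level of Ern1, the beta cell markers, the markers of other cell types of the pancreas and the targets of spliced XBP1 could therefore not be read, and IDs are described by their level and by their behaviour in the vehicle groups. The RNA is from bulk cultures, in which fewer cells of a kind and less RNA per cell cannot be told apart. For the 6 induced vehicle libraries, the time given among the sample characteristics is the opposite of the one in the title, description and column name, and the title was followed. The PAIR1 and KIRA9 libraries carry no such conflict.

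Library totals ran from 12.6 to 20.4 M counts in the 6 libraries compared and up to 23.8 M in the series. A count of 0 in these 6 allows up to 3 counts, or 0.147 to 0.238 CPM (counts per 1000000 counts), for counting error only. A block of 22 IDs was higher by at least 2 log2 units in 6 libraries of several groups than in the other libraries. PAIR1 at 24 h replicate 1 is among these 6, and 0 KIRA9 libraries are. At 24 h induced vehicle replicates 1 and 2 and uninduced replicate 2 are also among them. At 4 h they are induced vehicle replicate 3 and uninduced replicate 2. The block took 0.497 to 0.567% of counts in the 6 libraries and 0.0164 to 0.0245% elsewhere. At 24 h, 0 of its 22 IDs were called between the compounds, against 16.3% of all IDs. The block's definition sets 1 PAIR1 library far above the others of its group, so such IDs could hardly be called. The 0 therefore does not show that the comparison was unaffected. Results are therefore also given without PAIR1 replicate 1, and some without all 6 libraries.

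At 24 h the cells under PAIR1 and under KIRA9 differed in many IDs, mostly by small amounts. Of 13760 IDs tested, 2243 (16.3%) passed the threshold of 0.05 on p-values adjusted over all IDs, taken from the quasi-likelihood test of edgeR, 825 of them higher (6.0%) and 1418 lower (10.3%) with PAIR1. More of the IDs past 1.5-fold and 2-fold lay on the lower side. A level at least 1.5-fold different was seen in 66 called IDs higher and 299 lower with PAIR1, at least 2-fold in 28 and 67, and at least 4-fold in 6 and 6. The middle 50% of the called IDs spanned 0.15 to 0.31 on the log2 scale on the higher side and -0.54 to -0.22 on the lower side. Over all IDs tested the median difference was 0.01. The scaling itself centres most IDs near 0, so this value cannot show whether all IDs shifted together. Without PAIR1 replicate 1, 1932 IDs were called, and 1780 (79.4%) of the 2243 were among them.

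Without any model, the 3 PAIR1 libraries lay entirely above the 3 KIRA9 libraries in 2132 IDs (15.5%) and entirely below them in 2472 (18.0%), together 33.5% of the IDs tested. At 4 h the same count was 1332 IDs above (9.68%) and 1250 below (9.08%), 18.8% together. With no difference between the compounds, 3 against 3 libraries would separate in either direction with a probability of 0.1 for each ID. The calls depended on abundance. Of the 2318 IDs with a mean of at least 100 CPM, 33.8% were called, with a median absolute difference of 0.19 on the log2 scale. Of the 7040 IDs at 10 to 100 CPM, 18.0% were called. The 3305 IDs at 1 to 10 CPM gave 5.39%, and the 1097 IDs below 1 CPM gave 1.55%, with a median called difference of 1.34. The median standard error (SE) of a difference was 0.0384 log2 units in the most abundant class and 0.487 in the least abundant, so differences of the size seen among abundant transcripts were not detectable at this depth among scarce transcripts.

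**Figure D1:**
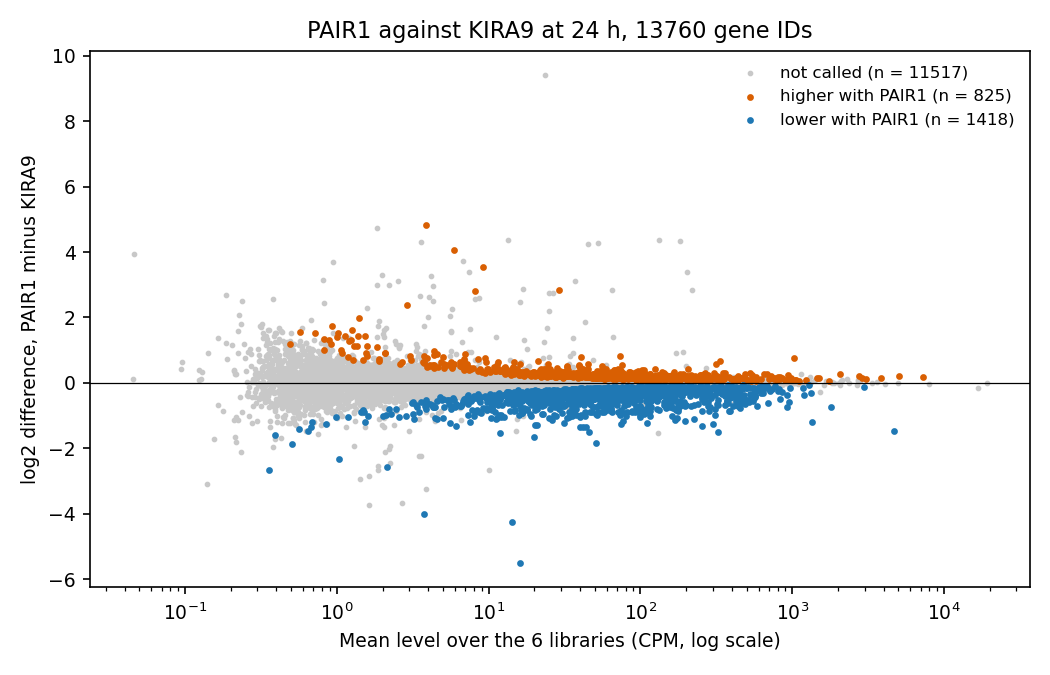
Each point is 1 of the 13760 gene IDs tested, with its mean CPM over the 6 libraries at 24 h on a log axis and its log2 difference, PAIR1 minus KIRA9, on the vertical axis. Orange marks the 825 IDs called higher and blue the 1418 called lower with PAIR1; the blue points reach further from 0 across most of the range of levels, and single points beyond 4 log2 units lie apart from the rest.

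The IDs that separated the compounds were mainly those that induction itself changed. The contrast of induced with uninduced vehicle cells at 24 h, taken from the same fit, called 4102 IDs raised (29.8%) and 4401 lowered (32.0%), 61.8% together. Of the raised IDs, PAIR1 cells held more than KIRA9 cells in 15.4% and less in 0.707%, against 6.0% and 10.3% of all IDs. Of the lowered IDs, 29.7% were called lower and 0.977% higher with PAIR1. Among the 5257 IDs that were not called for induction, 2.83% were called higher and 1.60% lower with PAIR1. Calls between the compounds depended on abundance, and these sets were not matched for it. Of the 2010 IDs called in both contrasts, 1938 (96.4%) differed in the direction of induction, so that an ID raised by induction was higher, and an ID lowered by it was lower, with PAIR1. This sorting rests on the times in the titles. With the conflicting time characteristic for the 6 induced vehicle libraries, 1024 IDs were called in both contrasts, 251 of them raised by induction and higher with PAIR1, 223 raised and lower, 126 lowered and higher, and 424 lowered and lower. The difference between PAIR1 and KIRA9 itself uses none of these 6 libraries as a group mean.

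How far apart the compounds lay depended on how deeply induction had lowered an ID. IDs were sorted by their fold change with induction, which uses no PAIR1 or KIRA9 library, and the median log2 level above the uninduced mean was taken in each library. The 215 IDs lowered at least 4-fold stood at -2.26, -2.30 and -2.29 in the 3 induced vehicle libraries. They stood at -1.11, -1.05 and -1.13 in the PAIR1 libraries and at -0.31 in each KIRA9 library. The PAIR1 libraries thus lay between induced and uninduced cells, the KIRA9 libraries lay near uninduced cells, and the groups did not overlap. The difference between the compounds was -0.79 for these IDs, -0.30 for the 1042 IDs lowered 2 to 4-fold, -0.14 for the 1143 lowered 1.5 to 2-fold and -0.04 for the 2001 lowered under 1.5-fold. As a share of each ID's own induction change, the median difference between the compounds went from 13.1% in the shallowest of these classes through 17.3 and 23.6 to 32.6% in the deepest. The share of IDs called lower with PAIR1 went from 9.90% through 30.4 and 58.3 to 70.7%.

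Among IDs raised at least 2-fold by induction the compounds differed by less than among IDs lowered as far. The 324 IDs raised 2 to 4-fold stood at 1.17, 1.18 and 1.18 in induced cells. They stood at 0.45, 0.44 and 0.49 with PAIR1 and at 0.25, 0.26 and 0.23 with KIRA9, again without overlap. The difference, PAIR1 minus KIRA9, was 0.07 for the 2885 IDs raised less than 1.5-fold, 0.14 for the 830 raised 1.5 to 2-fold, 0.21 for those raised 2 to 4-fold and 0.21 for the 63 raised at least 4-fold. The last value rests on few IDs and ran from 0.11 without induced replicate 1 to 0.32 without uninduced replicate 2. The median difference as a share of the induction change was 21.9, 20.1, 17.3 and 16% from the smallest to the largest class. In all 8 classes the exact two-sided permutation p at 24 h was 0.1, the smallest that 3 against 3 libraries allow, or 0.16 after Benjamini-Hochberg adjustment over the 16 tests at both times. The change of this share between classes was not tested. With the conflicting time characteristic, the 4 classes raised or lowered 1.5 to 2-fold, lowered 2 to 4-fold and lowered at least 4-fold, then made of other IDs, gave differences of the opposite sign (-0.02, 0.03, 0.06 and 0.48).

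At 4 h the differences between the compounds in the same classes of IDs were small. The 215 IDs that were later lowered at least 4-fold stood at 0.04, 0.03 and 0.04 in the PAIR1 libraries and at 0.02, 0.02 and 0.04 in the KIRA9 libraries. Across the 8 classes the difference between the compounds at 4 h was between -0.07 and 0.02. The libraries did not overlap in 2 of these classes, the IDs raised under 1.5-fold, with a difference of 0.01, and those lowered 1.5 to 2-fold, with one of -0.01, each with the same exact permutation p of 0.1 as the classes at 24 h. In the other 6 classes they overlapped.

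**Figure D2:**
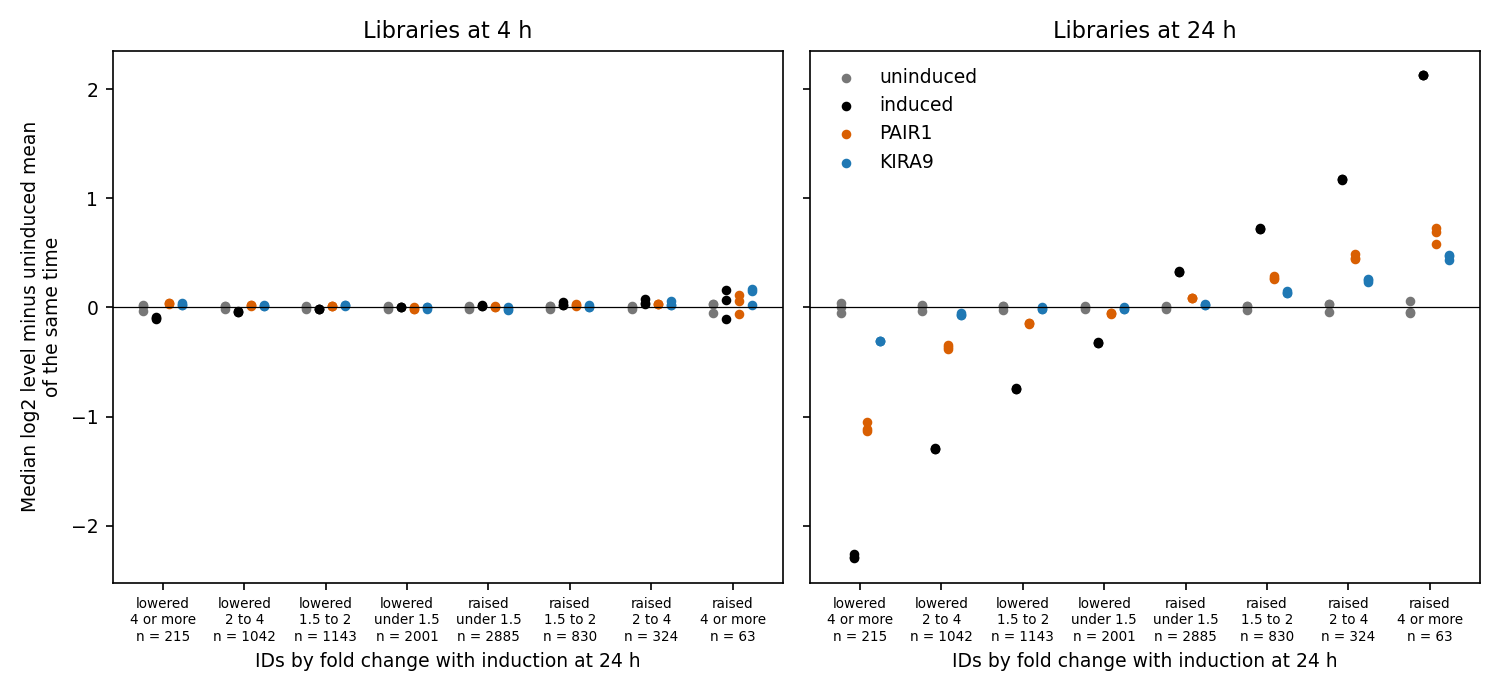
Each point is 1 library; the vertical axis is the median log2 level of a class of IDs minus the uninduced mean of the same time, and the classes along the horizontal axis are the fold change with induction at 24 h, from lowered at least 4-fold to raised at least 4-fold, with the number of IDs below each. At 24 h (right) the PAIR1 points lie between the induced and the KIRA9 points in all 8 classes, with the widest gap at -1.13 to -1.05 against -0.31 in the deepest class on the left; at 4 h (left) all groups lie near 0.

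The sets raised or lowered by induction could also be read as shares of each library's counts. Such shares are relative, so a rise in one can lower the other, and they do not give amounts of RNA. The 4102 IDs raised by induction took 33.2, 33.6 and 33.7% of all counts in the PAIR1 libraries and 30.9, 31.0 and 30.9% in the KIRA9 libraries, beside 42.2 ± 0.233% (SD, n = 3) in induced and 29.5 ± 0.141% in uninduced cells. The 4401 lowered IDs took 41.7, 41.9 and 41.7% with PAIR1 and 45.7, 45.4 and 45.5% with KIRA9, beside 31.0 ± 0.0646% in induced and 46.3 ± 0.619% in uninduced cells. The compounds did not overlap in either share. The differences were 2.53 and -3.71 percentage points, each with an exact permutation p of 0.1. At 4 h the same shares differed by -0.106 and -0.0418 percentage points (exact permutation p = 0.1 and 0.4).

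Single IDs were spread widely around these medians. Of the 1257 IDs lowered at least 2-fold, the KIRA9 mean had passed the uninduced mean in 425 (33.8%) and the PAIR1 mean in 67 (5.33%). The PAIR1 mean was still nearer to induced than to uninduced cells in 245 (19.5%) and had gone below the induced mean in 17, against 69 (5.49%) and 13 with KIRA9. The median ID of this class kept 30.2% of its induction change with PAIR1 (quartiles 18.6 and 45.7%) and 6.60% with KIRA9 (-3.64 and 18.5%). Of the 387 IDs raised at least 2-fold, the KIRA9 mean had passed the uninduced mean in 109 (28.2%) and the PAIR1 mean in 47 (12.1%). The PAIR1 mean was nearer to the induced level in 123 and beyond it in 13, against 74 and 6 with KIRA9. These places share the vehicle libraries and are given side by side as a description, with no test.

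ENSRNOG00000002050 shows the prevailing pattern, with the largest difference among IDs that varied little inside every group. It stood at 119, 142 and 144 CPM in uninduced cells at 24 h and at 10.9, 9.87 and 9.21 in induced cells. It was at 23.0, 23.9 and 20.4 CPM with PAIR1 and at 82.5, 80.9 and 77.4 with KIRA9. The 4 groups did not overlap, and the order from low to high was induced, PAIR1, KIRA9, uninduced. The difference between the compounds was -1.84 ± 0.07 (SE, log2), a 3.59-fold lower level with PAIR1 (adjusted p = 7.3e-15, edgeR). Against induced vehicle cells it was 2.22-fold higher with PAIR1 and 7.97-fold higher with KIRA9 (adjusted p = 5.1e-11 and 1.5e-19 in the same test). In this contrast 30.0% of all IDs were called higher with PAIR1 and 24.9% lower (54.9% together), beside 32.3% and 30.6% with KIRA9 (62.9% together).

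At 4 h ENSRNOG00000002050 was at 127, 123 and 120 CPM with PAIR1 and at 137, 120 and 127 with KIRA9. These groups overlapped, and the difference of -0.05 ± 0.06 was not called (adjusted p = 0.81, edgeR). The change of the difference from 4 h to 24 h was -1.79 ± 0.09 (adjusted p = 4.8e-12, edgeR). This change contains the 24 h difference by which the ID was chosen, so its direction was largely set in advance.

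ENSRNOG00000014205 is an ID raised by induction that was higher with PAIR1, and it separated the compounds at both times. It stood at 40.7, 41.6 and 48.1 CPM in uninduced and at 106, 100 and 102 in induced cells at 24 h. It was at 48.7, 52.8 and 51.8 CPM with PAIR1 and at 30.9, 28.4 and 30.3 with KIRA9. The PAIR1 libraries thus lay just above the uninduced ones and the KIRA9 libraries lay below all uninduced libraries. The difference was 0.78 ± 0.06 (SE, log2), or 1.71-fold (adjusted p = 6.3e-10, edgeR). At 4 h, when vehicle cells held 89.9 ± 0.849 CPM without and 92.8 ± 4.22 CPM with induction (SD, n = 3), it was at 84.7, 79.1 and 83.2 CPM with PAIR1 and at 56.4, 50.7 and 53.9 with KIRA9. The difference at 4 h was 0.62 ± 0.06 (adjusted p = 8.5e-08, edgeR), and its change to 24 h, 0.16 ± 0.08, was not called (adjusted p = 0.28, edgeR).

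These 2 IDs were chosen after their values were seen. Each had the largest difference in its direction among IDs that reached 50 CPM in the higher group and had under 1.5-fold spread inside each of the 8 groups, of which there were 517 higher and 876 lower with PAIR1. The 12 first of these in each direction ran from 1.33 to 1.71-fold on the higher side and from 2.25 to 3.59-fold on the lower side. All 12 on the lower side were lowered by induction, 0 had such a call at 4 h, and all 12 stood below the uninduced mean, at -2.58 to -1.36 log2 units with PAIR1 and -0.92 to -0.10 with KIRA9. Of the 12 on the higher side, 10 were raised by induction and 5 were already called higher at 4 h. The KIRA9 mean was below the uninduced mean in 10 of these 12 and the PAIR1 mean in 4. Over all IDs tested, 29.8% were raised and 32.0% lowered by induction, and 0.821% were called higher and 1.24% lower at 4 h. Of all 1418 IDs called lower at 24 h, 1305 were lowered by induction and 59 called lower at 4 h. The 12 on the lower side thus did not stand apart from that list in these counts. Of all 825 called higher, 633 were raised by induction and 46 called higher at 4 h.

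Among called IDs with no overlap between the compounds and at least 5 CPM on the higher side, which is the rule for naming, those with the largest fold changes were of another kind. ENSRNOG00000050535, the first by this rule on the higher side, was at 2.69, 32.9 and 14.8 CPM with PAIR1 and at 1.86, 1.22 and 1.25 with KIRA9. Its difference of 3.55 ± 0.83 was called (adjusted p = 0.0037, edgeR), but the levels inside PAIR1 differed more than 8-fold. It was also at 3.04, 19.8 and 2.30 CPM in induced and at 3.47, 9.81 and 1.69 in uninduced cells, so that 1 induced vehicle library was higher than PAIR1 replicate 3. ENSRNOG00000049394, the first by the rule on the lower side, was at 0.555, 0.394 and 1.05 CPM with PAIR1 and at 1.59, 35.5 and 57.5 with KIRA9. Its difference was -5.51 ± 1.23 (adjusted p = 0.0026, edgeR), while induced cells held 30.8, 0.867 and 1.06 CPM. Such an over 8-fold spread inside a compound group was found in 3 of the 759 IDs that met the naming rule on the higher side, which were its first 3, and in 2 of the 1365 on the lower side, which were its first 2. Whether this spread comes from the cultures or the libraries was not tested.

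**Figure D3:**
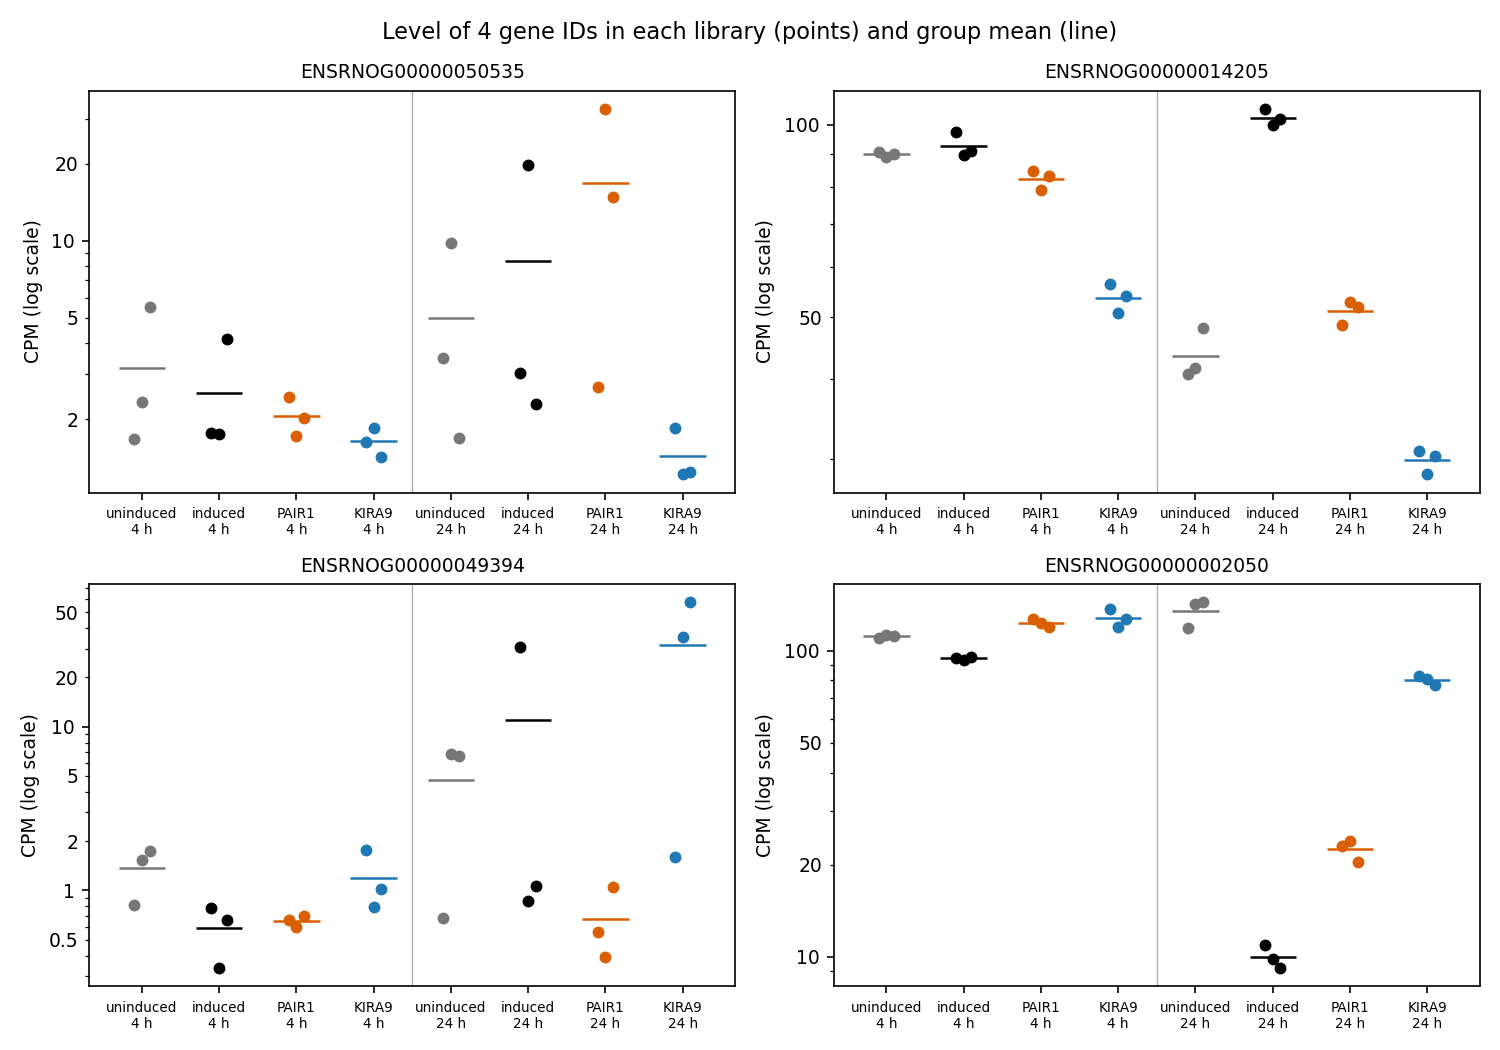
CPM on a log axis for the 4 named IDs in each of the 24 libraries, as points, with the group mean as a line; the 4 groups at 4 h are on the left of each panel and those at 24 h on the right. In the panels of ENSRNOG00000014205 and ENSRNOG00000002050 the 3 libraries of a group lie close together and PAIR1 is apart from KIRA9 at 24 h, whereas in the other panels single libraries of PAIR1, KIRA9 or the vehicle groups reach high levels.

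A smaller group of IDs separated the compounds without a called effect of induction, 149 higher and 84 lower with PAIR1. In many of these the mean of each compound lay outside the uninduced and induced means. Of the 149 higher with PAIR1, the KIRA9 mean was below both the uninduced and the induced mean in 136 and above both in 8, and the PAIR1 mean was above both in 61 and below both in 48. Of the 84 lower with PAIR1, the KIRA9 mean was above both vehicle means in 76 and below both in 1, and the PAIR1 mean was below both in 45 and above both in 30. The IDs were chosen by the compound difference itself and by the absence of a called induction effect. The interval between their uninduced and induced means can therefore be narrow, and a compound mean can fall outside it by noise alone. These counts thus cannot show that a compound moved IDs beyond both vehicle states, and the places are a description. In addition, 72 IDs differed against the direction of induction. The 29 raised by induction but lower with PAIR1 had a median difference of -0.22. The 43 lowered by induction but higher with PAIR1 had one of 0.18. At 4 h, 4 of the 29 had been called lower, against 1.24% of all IDs, and 5 of the 43 higher, against 0.821%. The sizes of both sets were unsteady: the 29 became 19 without PAIR1 replicate 1, and 16 without PAIR1 replicate 2. The 43 became 27 without PAIR1 replicate 2 and also without KIRA9 replicate 1. Without the 6 libraries that share the block, the sets held 14 and 14 IDs. At a threshold of 0.01 they held 9 and 15, and without uninduced replicate 1 at 24 h 30 and 60.

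The comparison at 4 h, which uses other libraries, shared part of its IDs with the one at 24 h. Calls at 4 h were 113 IDs higher with PAIR1 (0.821%) and 170 lower (1.24%), 2.06% together. The 113 became 60 without PAIR1 replicate 1 and 63 without PAIR1 replicate 3. They became 64, 63 and 72 without KIRA9 replicate 1, 2 and 3, while all 283 became 187 without PAIR1 replicate 1. Of the 113, 46 (40.7%) were called higher at 24 h, where 6.0% of all IDs were, and 13 were called lower. Of the 170, 59 (34.7%) were called lower at 24 h, where 10.3% of all IDs were, and 10 were called higher. All IDs include scarce ones that are seldom called, and no set of like abundance was compared. The shared IDs were 5.58% of the list of IDs higher at 24 h and 4.16% of the list of IDs lower at 24 h. The median difference of the IDs called at 4 h went from 0.19 at 4 h to 0.09 at 24 h on the higher side and from -0.35 to -0.09 on the lower side. The values at 4 h are those that chose these IDs.

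The IDs called at 24 h had small median differences at 4 h. The 825 IDs called higher at 24 h had a median difference of 0.05 at 4 h, and the 1418 called lower one of -0.01, beside 0.21 and -0.33 at 24 h, the time that chose them. The change between the times was tested directly as an interaction and called in 8.61% of all IDs, 2.16% becoming more positive and 6.45% more negative. It was called in the direction of the 24 h difference in 184 of the 825 and 819 of the 1418, and in the opposite direction in 0 and 6. The interaction contains the 24 h difference that chose these IDs, so its direction in them was largely set in advance. In the other IDs the difference between the times was not called, which does not show that it was equal.

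**Figure D4:**
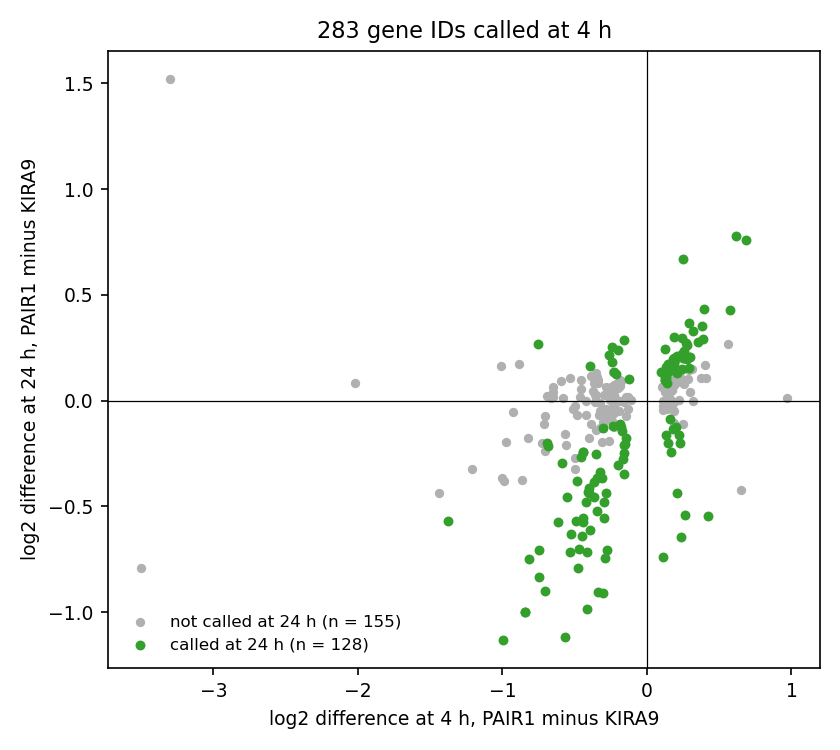
The log2 difference, PAIR1 minus KIRA9, at 4 h (horizontal) and 24 h (vertical) for the 283 gene IDs called at 4 h. Green points are the 128 IDs also called at 24 h, of which 105 lie in the same-sign quadrants and 23 in the others; grey points are the 155 not called at 24 h.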

How the data were processed

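Poly(A)-enriched RNA was sequenced from NEBNext Ultra II libraries, per the labels' protocols. The deposited values are raw read counts per Ensembl gene ID, 1 column per library, not normalized by the authors. HISAT2 and HTSeq are named without version, per the submitters' processing notes. Genome build, annotation and strand setting are not given in the sources used here. Genes that overlap or resemble each other may therefore share reads. No sequence is shown, since no ID could be matched. For the same reason the 29 gene lists prepared were not tested and only 4 IDs are named.

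Groups and times followed the sample titles. IDs were filtered with filterByExpr (minimum count 10, 13760 of 26689 kept, at least 99.9% of each library's counts), scaled by TMM and fitted in edgeR 4.0.16 (R 4.3.3) with 1 mean for each of the 8 groups over all 24 libraries, without a replicate block. P-values were adjusted by the Benjamini-Hochberg method over all 13760 IDs, and an ID is called under 0.05. CPM are TMM-scaled. Median levels use log2 CPM with a prior count of 2. The spread inside a group is the highest over the lowest CPM after adding 0.5. The procedure was run on 3 sets of simulated counts with 200 changed IDs. It recovered 70% of changes of 0.5 log2 units and 92.3% of changes of 1, and 3.91% of calls were false. The median called differences at 24 h, 0.21 and -0.33, were smaller than either size, and recovery at such sizes was not simulated. Replicate pairs among the 6 libraries differed by more than sampling noise (chi-square per degree of freedom 3.57 to 11.4).

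The rule for naming took, in each direction, the 2 IDs with the largest difference among those called, with no overlap between the libraries and a mean of 5 CPM or more on the higher side. Because its first IDs varied widely inside groups, the first in each direction is named and the second was replaced by an ID chosen after its values were seen. The comparison, the lists and the sizes of classes were chosen with earlier results of these data known. Alternatives were DESeq2 1.42.0, DESeq2's size factors, no filter, fits to the compared groups, a replicate block, a threshold of 0.01, leaving out single libraries, and the conflicting time label.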

Additional observations from a re-analysis of the deposited data

Results flagged for a closer look

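The difference between PAIR1 and KIRA9 was not the same at both times in 1185 IDs, by an interaction test in edgeR. ENSRNOG00000002050 was among them, with a change of the log2 difference of -1.79 from 4 h to 24 h, and lower with PAIR1 than with KIRA9 in 3 of 3 libraries at 24 h. It was chosen by its 24 h difference, which the interaction contains, so the direction of this change was largely set in advance. Groups of 3 libraries are too small for a test of single outlying samples.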

How the results depend on the processing

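The 2243 calls between PAIR1 and KIRA9 at 24 h became 2149 with DESeq2, 2262 with DESeq2's size factors in edgeR, 2008 without the filter and 2179 with only the compared groups fitted. They became 1776 to 1932 with 1 of the 6 libraries left out. Calls at 4 h numbered 187 to 227 with 1 library left out. Without the 6 libraries that share a block of IDs, an alternative chosen after seeing the data, 1741 were called at 24 h. The IDs called for both the compound and the induction contrast then went from 2010 to 1511. Of these, 401 were raised and higher with PAIR1, from 633, and 1082 lowered and lower, from 1305. The class lowered at least 4-fold then differed by -0.70 between the compounds, from -0.79. Each of the 4 named IDs kept its direction and its call in 13 of 13 alternatives.

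With a threshold of 0.01, calls numbered 1426 at 24 h, 167 at 4 h, 770 for the change between the times and 1317 for both the compound and the induction contrast, as fewer IDs pass a stricter threshold. With the conflicting time characteristic, calls numbered 3787 for induction, 4646 for PAIR1 and 4218 for KIRA9 when each was set against induced vehicle cells, and 1024 for both the compound and the induction contrast. The class differences then turned to -0.02 (raised 1.5 to 2-fold), 0.03 (lowered 1.5 to 2-fold), 0.06 (lowered 2 to 4-fold) and 0.48 (lowered at least 4-fold). In this alternative the induced vehicle libraries titled 4 h took the place of the induced vehicle group at 24 h, and the classes were made of other IDs. Which of the labels is right was not tested.

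Same-numbered PAIR1 and KIRA9 libraries at 24 h deviated from their group means with correlations across IDs of 0.0581, 0.0304 and 0.0328. Each was above that PAIR1 library's correlation with the other numbers, but all were under 0.1, so the numbers were not taken to pair the samples. With a replicate block, 2270 IDs were called at 24 h, 283 at 4 h and 1165 for the change between the times, and 2037 for both the compound and the induction contrast.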
